A study of Mus musculus with 12 samples.

Results

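The enzymes that crosslink collagen and elastin were followed in lung mesenchymal cells in which Klf4, a zinc finger transcription factor of the Krüppel-like family, was silenced. The 8 genes are the 5 lysyl oxidases Lox, Loxl1, Loxl2, Loxl3 and Loxl4 and the 3 lysyl hydroxylases Plod1, Plod2 and Plod3, chosen by their symbols as family members. They are 8 of 52636 rows shared by both deposited expression tables, and all 8 passed the filter on low values (a mean TPM, the share of transcripts scaled to a fixed library total, of at least 1) in each comparison. Bulk RNA-seq covered 12 libraries in 4 groups of 3. Smooth muscle cells (SMCs) were a purchased C57BL/6 airway culture that the labels place in the trachea, of unstated age, treated with scrambled RNA (Scr) or with siRNA against Klf4 (siKlf4). PDGFR-β+ cells came from the lungs of C57BL/6 mice aged 12 weeks per the labels, given the same 2 treatments. The study's methods describe them as cells that carried the Zs reporter, sorted from tamoxifen-induced Pdgfrb-CreERT2, ROSA26R(Zs/+) mice and then cultured, so both cell types were read in culture and after transfection. The Scr cells are labelled wild type and the siKlf4 cells Klf4 knockdown, and the study describes each comparison as independent experiments without saying which cultures or animals gave which library, so the tests measure the spread between these libraries.

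Collagen is hardened in 2 enzymatic steps. In the endoplasmic reticulum, PLOD enzymes hydroxylate lysines of new procollagen chains. Outside the cell, copper-dependent LOX enzymes oxidize lysines and hydroxylysines to aldehydes that condense into covalent bridges within and between collagen molecules. LOX and LOXL1 also crosslink elastin, PLOD2 hydroxylates the telopeptides that set the pyridinoline type of crosslink found in scar tissue, and stiffer crosslinked matrix is a known feature of fibrotic lung.

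Klf4 itself checked the labels. It fell to 21.9% of its Scr level in SMCs and to 9.16% in PDGFR-β+ cells, without overlap between groups in either. The 12 libraries listed between 20590 and 21780 genes above 0, mitochondrial transcripts took 2.34% to 4.65% of TPM, and each library summed to 1000000 TPM, so the read depth behind a value cannot be taken from the tables. The SMC table has 2 columns without a replicate number, 1 for Scr and 1 for siKlf4, which are named in another form. By elimination they would be replicate 1 of each group. Their names do not state this, so these columns were tied only to their group. In the values below they come first in each SMC trio, followed by replicates 2 and 3, and SMC results that move without them are given both ways. Summed smooth muscle markers (9 genes) ran from 1511 to 2302 TPM in Scr SMCs but from 5582 to 6434 TPM in Scr PDGFR-β+ cells. The cells labelled SMCs thus held less of these transcripts in sum, with Acta2 at 1031, 1522 and 1567 TPM against 4594, 4545 and 3969 TPM. Of the 9 genes 6 were called higher in Scr PDGFR-β+ cells, where 23.3% of all genes were, none was lower and 3 were not called. Des read 2.39 to 2.99 TPM in Scr SMCs against 1.56 to 2.37 TPM, and Smtn 53.4 to 64.8 TPM against 56.3 to 70.7 TPM. Pdgfrb was 2.08-fold higher in Scr PDGFR-β+ cells on the log2(TPM + 1) scale and present in both cell types. Among 9 PDGFR-β+ mesenchyme markers, Gli1 and Pi16 were under 1 TPM in all libraries, Pdgfra, Axin2, Tcf21 and Dpt were lower and Cspg4 higher in PDGFR-β+ cells than in SMCs, and Rgs5 did not pass the test. In bulk libraries fewer cells of a type and less RNA per cell cannot be told apart.

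With Scr RNA, Lox was by far the most abundant member in both cell types. It measured 3555, 4424 and 4673 TPM in SMCs and 3219, 2049 and 3098 TPM in PDGFR-β+ cells. The SMC values were all higher, and Lox supplied 87.7% ± 0.46 (SD, n = 3) of the summed LOX family TPM there and 85.1% ± 3.42 in PDGFR-β+ cells. In SMCs the order of mean TPM was Lox, Loxl1, Plod2, Loxl3, Plod3, Plod1, Loxl2 and Loxl4, from 4218 ± 587 down to 32.0 ± 2.16 TPM, and the neighbours Plod2 and Loxl3 overlapped, as did Loxl3 and Plod3. In PDGFR-β+ cells Plod2 stood second with 373 ± 63.2 TPM, ahead of Loxl1 with 280 ± 14.7 TPM, and Loxl2 was last with 36.1 ± 20.4 TPM. There Plod1 overlapped Loxl3 and Loxl3 overlapped Loxl4.

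Against the SMC baseline, 6 of 8 members differed in Scr PDGFR-β+ cells (adjusted p under 0.05, limma), beside 47.7% of all genes tested, so a difference between these cultures was common for any gene, with 23.3% higher and 24.4% lower. The groups of 6 members did not overlap, as for 58.6% of genes. Loxl4, Plod2 and Plod3 were higher in PDGFR-β+ cells, and Lox, Loxl1 and Loxl3 were lower. The largest differences were Plod2, higher by 1.33 ± 0.14 (SE) on the log2 scale (adjusted p = 0.000182), and Loxl4, higher by 1.20 ± 0.092 (adjusted p = 4.44e-05). Lox had a log2 difference of -0.62 ± 0.19 (adjusted p = 0.0304) that did not pass without SMC Scr replicate 2 (adjusted p = 0.083) or replicate 3 (0.089). Plod3 had a log2 difference of 0.28 ± 0.074 (adjusted p = 0.0153) that did not pass without SMC Scr replicate 3 (0.053) or PDGFR-β+ Scr replicate 1 (0.0561). The 2 cell types were quantified in separate tables and differ in origin and culture, and these cannot be told apart from cell type.

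**Figure D1:**
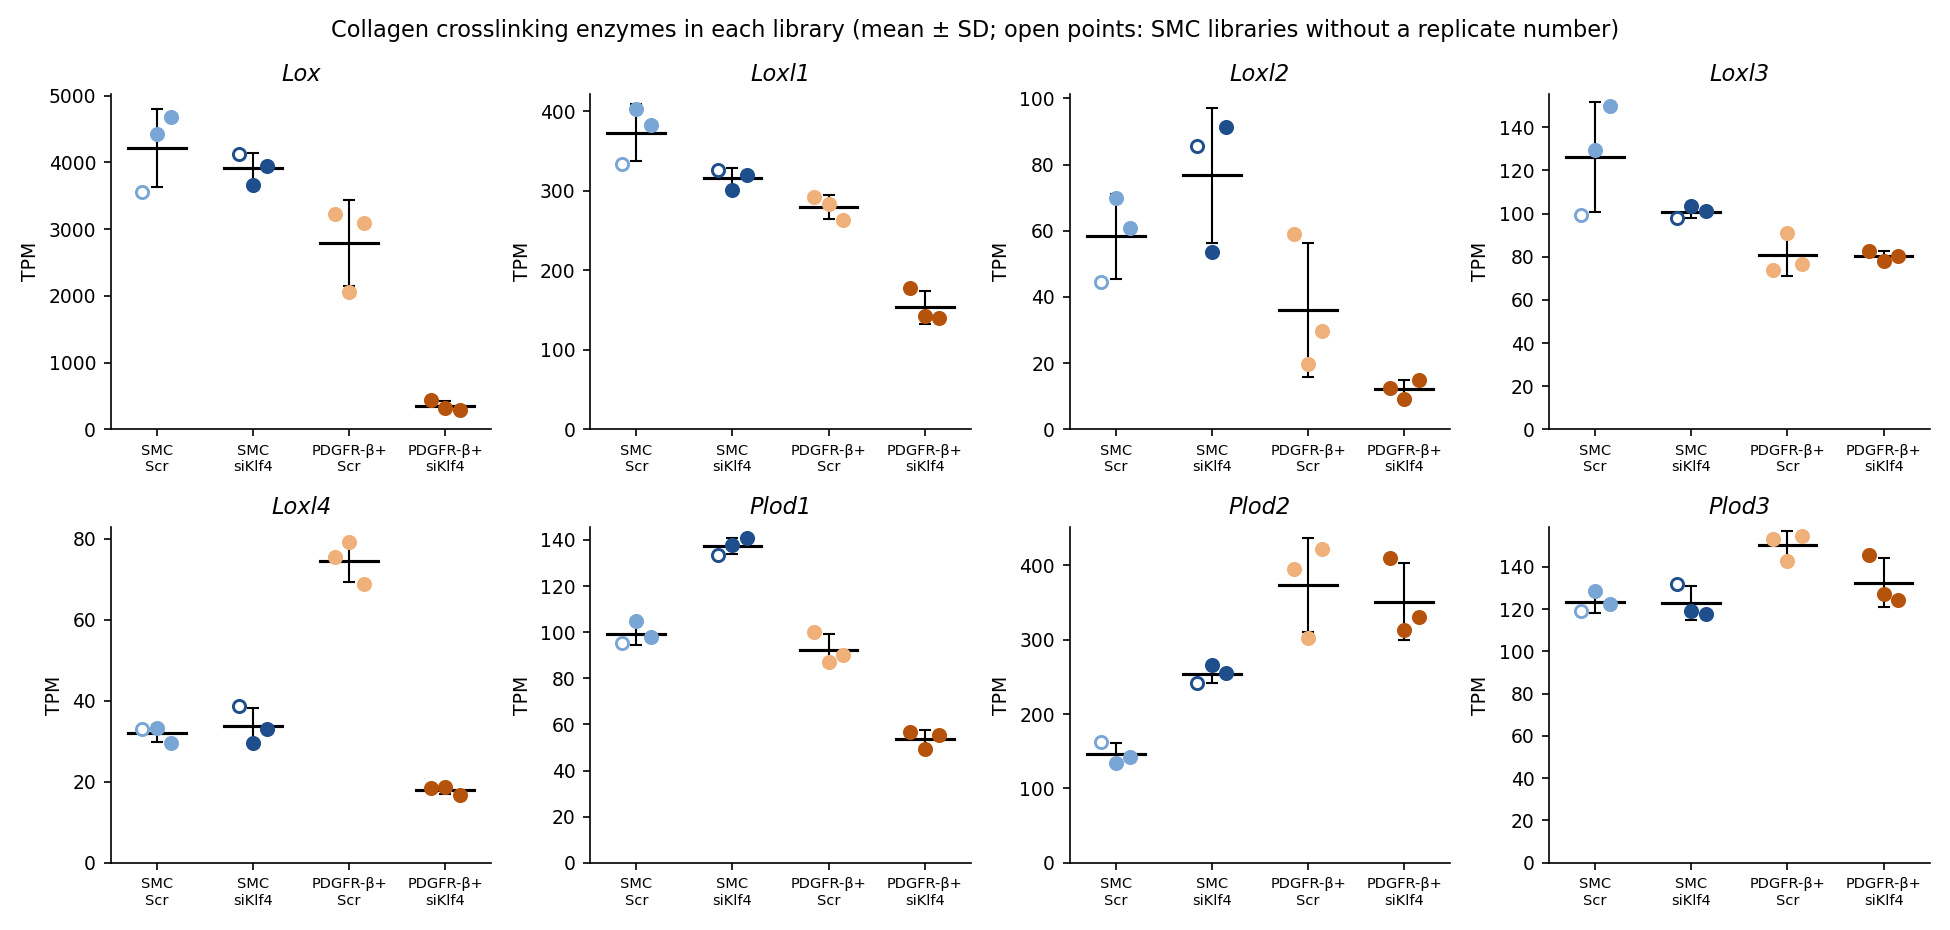
TPM (vertical axes, each starting at 0) of the 8 enzymes in 12 libraries by group. Points are libraries, bars are mean ± SD of 3, and open points are the SMC libraries without a replicate number. In the PDGFR-β+ panels for Lox, Loxl1, Loxl2, Loxl4 and Plod1 every siKlf4 library lies below every Scr library, while Plod1 and Plod2 rise in SMCs.

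In PDGFR-β+ cells siKlf4 lowered 5 of the 8 enzymes and raised none. Lox fell most, then Loxl4, Loxl2, Loxl1 and Plod1, and Loxl3, Plod2 and Plod3 did not pass the test. Of all 13694 genes tested 40.6% passed and 15.3% were lower, beside 25.3% higher. The groups did not overlap for the same 5 members, as they did not for 53.8% of genes. TPM are shares of a library, and the median log2 fold change of all genes was 0.097 here against -0.0032 after median-ratio scaling, which turned the split of all calls from 3461 higher and 2098 lower to 2639 higher and 2977 lower. Under that scaling Plod3 was also called lower (log2 fold change -0.29, adjusted p = 0.0169) and the 5 calls held.

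Lox, the founding lysyl oxidase, read 3219, 2049 and 3098 TPM under Scr and 441, 325 and 295 TPM under siKlf4 in PDGFR-β+ cells. No siKlf4 library came near the lowest Scr library. The mean fell to 12.7% of the Scr level, a log2 fold change of -2.97 ± 0.21 (SE, adjusted p = 5.99e-05), and of 13694 genes 13 had a lower fold change. With any 1 library left out it ranged from -3.18 to -2.85.

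Loxl4, a member of the branch with scavenger receptor domains, measured 75.6, 79.2 and 68.8 TPM under Scr and 18.5, 18.7 and 16.8 TPM under siKlf4. The libraries of each group lay close together and far from the other group. The log2 fold change was -1.99 ± 0.085 (adjusted p = 8.81e-06), to 24.2% of Scr, so a gene that began higher than in SMCs ended below the 33.7 ± 4.61 TPM of siKlf4 SMCs. Loxl2, of the same branch and known for crosslinking the collagen IV of basement membranes, was less even, with 58.9, 19.7 and 29.6 TPM under Scr and 12.4, 9.29 and 14.8 TPM under siKlf4. Scr replicate 1 stood well above the other Scr libraries, and the log2 fold change of -1.38 ± 0.36 (adjusted p = 0.0194) did not pass without siKlf4 replicate 2 (adjusted p = 0.0645) or with no filter on low genes (0.0588).

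Loxl1, which is tied to elastic fibre maintenance, fell from 292, 284 and 263 TPM to 178, 143 and 140 TPM. The log2 fold change was -0.87 ± 0.10 (adjusted p = 0.000628), to 54.9% of Scr, and every siKlf4 library was below every Scr library. Loxl3 stood apart from the rest of its family in this contrast. It measured 73.8, 91.2 and 76.7 TPM under Scr and 82.8, 78.2 and 80.4 TPM under siKlf4, with a log2 fold change of 0.0035 (95% interval -0.21 to 0.22) whose sign turned under both other scalings. Its gene shares 1297 bases with the protein-coding gene Htra2 on the opposite strand, which reached 47.5 TPM, and whether the counting used strand is not given in the sources used here.

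The active site shows how close these genes are. The 4 coding stretches below, read on the sense strand from GENCODE M21 transcripts on GRCm38 (mm10), encode the copper-binding histidine stretch of Loxl1 to Loxl4, with histidine codons in capitals. They are shown because Loxl2 and Loxl4, both lower with siKlf4 in PDGFR-β+ cells, and Loxl3, which was not, share it.
Loxl1: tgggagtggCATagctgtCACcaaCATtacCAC
Loxl2: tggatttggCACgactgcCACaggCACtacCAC
Loxl3: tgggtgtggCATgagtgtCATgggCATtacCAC
Loxl4: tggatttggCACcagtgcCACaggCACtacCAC
Each stretch of 33 bases is split by an intron: between exons 3 and 4 of 7 in Loxl1 (chr9:58293720-58294381, minus strand), exons 10 and 11 of 14 in Loxl2 (chr14:69682316-69689037, plus) and Loxl3 (chr6:83049995-83050125, plus), and exons 11 and 12 of 15 in Loxl4 (chr19:42598807-42599899, minus). Loxl2 and Loxl4 differ at 2 of the 33 bases, Loxl3 differs from Loxl1, Loxl2 and Loxl4 at 8 each, and Loxl1 differs from Loxl4 at 12. The encoded proteins have 607 residues for Loxl1, 776 for Loxl2, 754 for Loxl3 and 758 for Loxl4.

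The summed LOX family fell from 3260 ± 645 to 618 ± 100 TPM in PDGFR-β+ cells, and its make-up changed with it. Lox supplied 81.2% to 87.6% of the family in the Scr libraries and 53.9% to 60.2% in the siKlf4 libraries. The other 4 members together went from 438 to 500 TPM with Scr to 249 to 291 TPM under siKlf4, so they also fell as a sum, by less. The ratio of summed LOX to summed PLOD transcripts was 5.26 ± 0.50 with Scr and 1.15 ± 0.065 with siKlf4. After siKlf4 the levels of Lox (354 ± 77.2 TPM) and Plod2 (351 ± 51.8 TPM) overlapped, whereas with Scr Lox lay above Plod2 in each library.

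**Figure D2:**
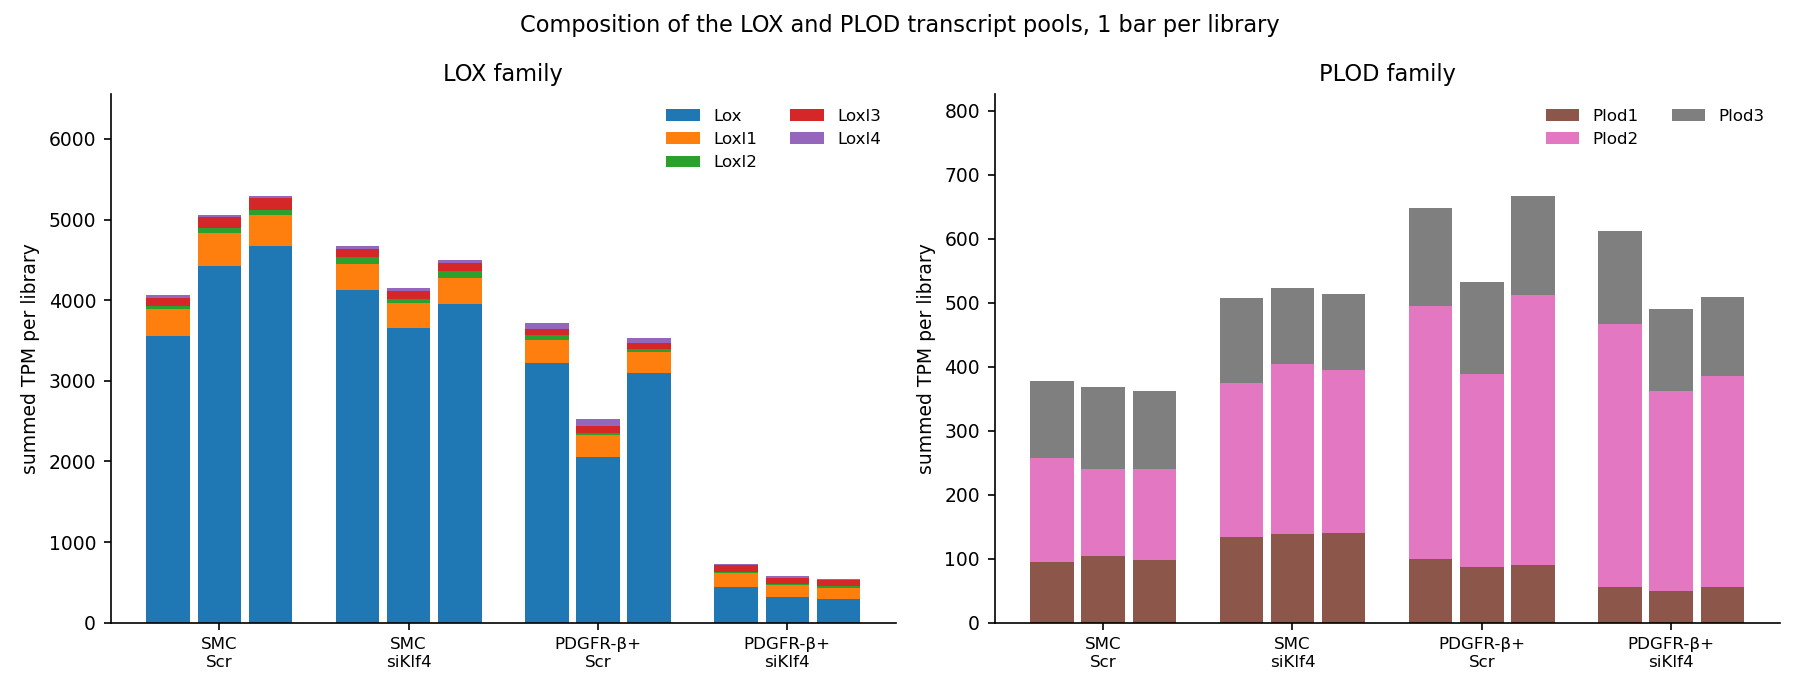
Summed TPM per library (bars from 0, 1 bar per library, 3 per group) of the 5 LOX genes (left) and the 3 PLOD genes (right), stacked by gene. The LOX bars of siKlf4 PDGFR-β+ cells reach at most 732 TPM against at least 2523 TPM with Scr, and the PLOD bars of siKlf4 SMCs exceed those of Scr SMCs.

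Among lysyl hydroxylases in PDGFR-β+ cells only Plod1 passed the test. Plod1, which hydroxylates lysines in the collagen triple helix, measured 100, 87.0 and 89.9 TPM under Scr and 56.6, 49.5 and 55.2 TPM under siKlf4. The trios were apart, and the log2 fold change was -0.77 ± 0.086 (adjusted p = 0.000498), to 58.2% of Scr. Plod2 measured 395, 302 and 423 TPM under Scr and 410, 313 and 330 TPM under siKlf4, with wide overlap and a log2 fold change of -0.084 (95% interval -0.43 to 0.27). Plod3, which also carries glycosyltransferase activity, went from 153, 143 and 155 TPM to 146, 127 and 124 TPM. Its log2 fold change of -0.18 ± 0.081 missed the threshold (adjusted p = 0.11) and passed without siKlf4 replicate 1 (-0.25, adjusted p = 0.0414). Plod3 shares 1003 bases with Znhit1 on the other strand, which reached 54.1 TPM.

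The RefSeq promoter table (GRCm38.p6) held 3 of the 8 members. The 250 bases before the start are shown for Loxl4 and Plod1, as members that fell together in PDGFR-β+ cells, with CACCC, the core that Krüppel-like factors are known to recognize, in capitals.
Loxl4: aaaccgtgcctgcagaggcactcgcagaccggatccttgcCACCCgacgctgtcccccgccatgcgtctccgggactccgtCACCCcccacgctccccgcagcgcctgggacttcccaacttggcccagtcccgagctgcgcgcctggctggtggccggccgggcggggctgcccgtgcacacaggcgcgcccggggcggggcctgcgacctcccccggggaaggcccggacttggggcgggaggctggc
Plod1: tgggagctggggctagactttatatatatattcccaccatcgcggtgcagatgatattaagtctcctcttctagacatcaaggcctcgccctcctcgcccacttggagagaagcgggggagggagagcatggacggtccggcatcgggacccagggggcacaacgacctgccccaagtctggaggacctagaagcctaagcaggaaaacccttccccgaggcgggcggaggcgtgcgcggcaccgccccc
The windows are chr19:42612807-42613056 for Loxl4 and chr4:147936777-147937026 for Plod1, both on the minus strand. On either strand, CACCC occurred 2 times in the Loxl4 window, at -210 to -206 and -169 to -165 from the start, and not in that of Plod1, while 52.01% of 32851 promoter windows of that length hold it. The hypoxia core ACGTG (in 16.57% of windows) was in neither, and GCGTG (28.16%) and the SMAD core CAGAC (42.19%) each occurred 1 time in both. The window of the third member, Plod3, is not shown. It held CACCC 1 time, ACGTG 1 time, GCGTG 3 times and no CAGAC. Plod3 was called in neither cell type in the main fits. In PDGFR-β+ cells it was called lower under median-ratio scaling and without siKlf4 replicate 1. Such matches are letters in a window and say nothing on binding.

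In SMCs 2 of the 8 enzymes rose with siKlf4, Plod1 and Plod2, and none passed as lower over all 6 libraries, against 3 lower in the numbered libraries alone. The number of all genes called lower also moved with the setting, from 1294 to 2494 over the alternatives against 1774 in the main fit. Of 13709 genes tested 28.5% passed and 15.6% were higher, and the groups of 3 of the 8 members did not overlap (Loxl1, Plod1 and Plod2), as for 47.1% of genes. These shares move with single libraries: of all genes, 2136 were higher and 1774 lower, against 1382 and 1157 without Scr replicate 2, 1157 and 1059 without siKlf4 replicate 2, and 1298 and 1044 without siKlf4 replicate 3. Plod1 measured 95.4, 105 and 97.8 TPM under Scr and 133, 138 and 141 TPM under siKlf4. The higher trio lay close together, and the log2 fold change was 0.46 ± 0.065 (adjusted p = 0.00364). Plod2 measured 163, 135 and 143 TPM under Scr and 241, 266 and 255 TPM under siKlf4, a log2 fold change of 0.79 ± 0.085 (adjusted p = 0.00166) and a mean at 173% of Scr. Both calls held with any 1 library left out and in the 4 numbered libraries alone. Plod3 measured 119, 129 and 122 TPM under Scr and 132, 119 and 118 TPM under siKlf4, with a log2 fold change of -0.0063 (95% interval -0.18 to 0.16). Summed PLOD transcripts thus went from 369 ± 7.19 to 514 ± 7.98 TPM, and Plod2 went from 39.7% ± 3.28 to 49.4% ± 1.63 of that sum.

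No LOX gene passed in SMCs when all 6 libraries were used in a fit without pairing, but 3 of the 5 depended on the unnumbered pair. Lox measured 3555, 4424 and 4673 TPM under Scr and 4121, 3657 and 3951 TPM under siKlf4. The unnumbered library was the lowest of the Scr trio and the highest of the siKlf4 trio, so Lox was higher with siKlf4 between the unnumbered libraries (log2 difference 0.21) and lower in the numbered ones (-0.26, adjusted p = 0.0379). Over all 6 its log2 fold change was -0.10 (95% interval -0.37 to 0.17, adjusted p = 0.536). Loxl1 went from 334, 403 and 383 TPM to 326, 302 and 320 TPM, with a log2 fold change of -0.24 ± 0.084 (adjusted p = 0.0749) that passed in the numbered libraries (-0.34, adjusted p = 0.0156) and without the unnumbered Scr library alone (adjusted p = 0.0174). Loxl3 measured 99.4, 129 and 150 TPM under Scr and 98.0, 104 and 101 TPM under siKlf4. It had a log2 fold change of -0.30 ± 0.14 (adjusted p = 0.154), likewise passing in the numbered libraries (-0.44, adjusted p = 0.0234) and without the unnumbered Scr library (adjusted p = 0.0124).

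The other LOX genes gave no call in SMCs under either choice. Loxl2 ranged from 44.4 to 69.8 TPM under Scr and from 53.5 to 91.3 TPM under siKlf4, with a log2 fold change of 0.38 (95% interval -0.18 to 0.93). Loxl4 ranged from 29.5 to 33.3 TPM under Scr and from 29.6 to 38.7 TPM under siKlf4, with a log2 fold change of 0.069 (95% interval -0.20 to 0.33). These intervals allow changes of either sign. Summed LOX family transcripts were 4807 ± 653 TPM under Scr and 4437 ± 267 TPM under siKlf4, and Lox kept 87.4% to 88.3% of them across the 6 SMC libraries.

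The response to siKlf4 was tested for a difference between the cell types over all 12 libraries, as the SMC effect minus the PDGFR-β+ effect. It passed for 6 of 8 members, each time with the SMC effect above that of PDGFR-β+ cells, where 33% of 13032 genes passed and 14.5% did so in that direction. The difference was 2.87 ± 0.26 (log2, SE) for Lox (adjusted p = 1.89e-05), 2.06 ± 0.14 for Loxl4 (4.26e-06) and 1.23 ± 0.11 for Plod1 (1.27e-05). Plod1 was the member that passed in both cell types with opposite signs. Plod2 differed by 0.87 ± 0.19 (0.00411) and Loxl1 by 0.63 ± 0.14 (0.00477). Loxl2 differed by 1.75 ± 0.48 (0.0162) over all libraries but not with the numbered SMC libraries alone (1.48, adjusted p = 0.0754). Loxl3 (-0.30, adjusted p = 0.215) and Plod3 (0.18, adjusted p = 0.226) did not pass, although Loxl3 did with the numbered SMC libraries alone (-0.44, adjusted p = 0.0384) and without the unnumbered Scr library (-0.46, adjusted p = 0.0201). For all genes this split moved from 1886 higher and 2411 lower to 2510 higher and 1913 lower after median-ratio scaling, under which the same 6 members were called.

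**Figure D3:**
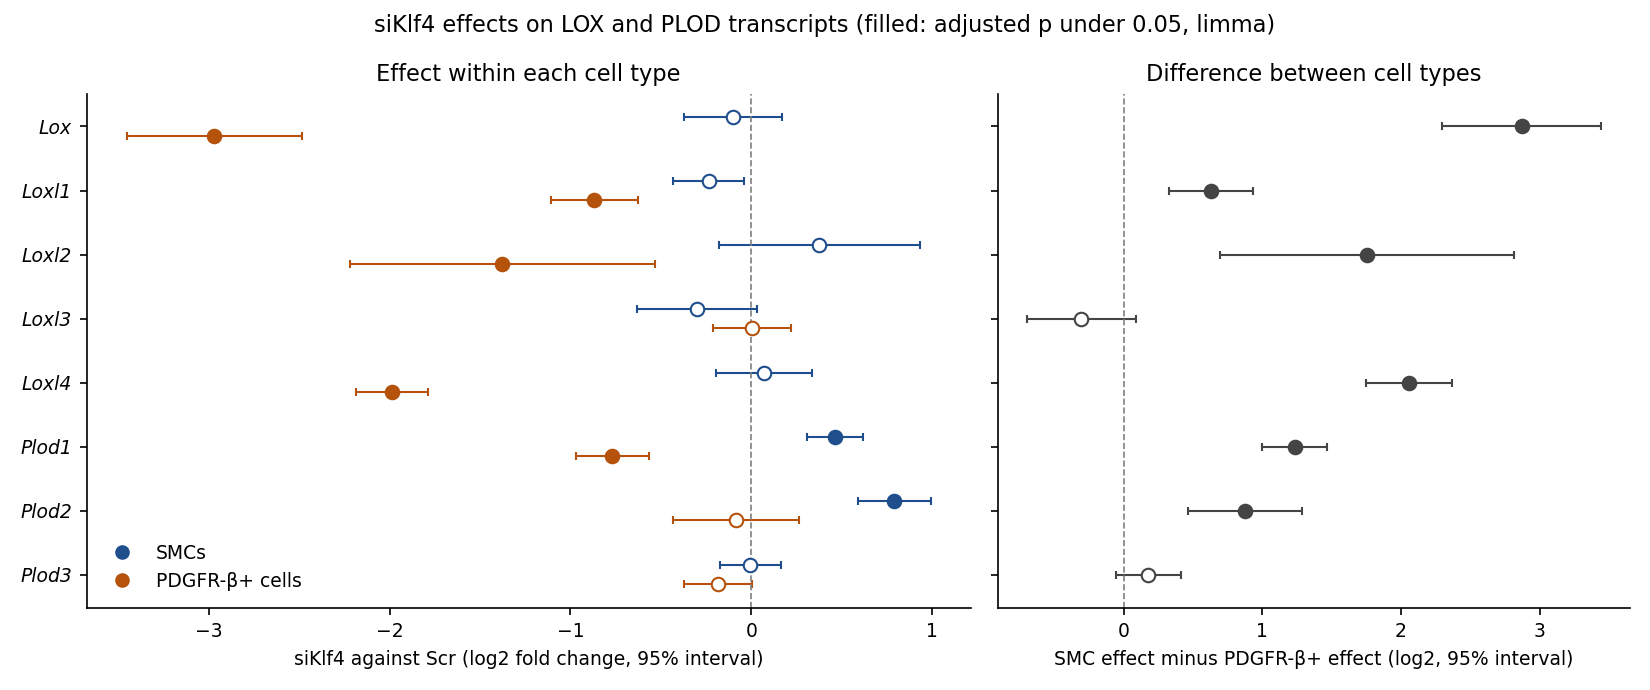
Left, log2 fold change of siKlf4 against Scr within each cell type for the 8 enzymes; right, the SMC effect minus the PDGFR-β+ effect. Points are limma estimates with 95% intervals (3 libraries per group), filled where adjusted p was under 0.05. Lox and Loxl4 lie farthest to the left in PDGFR-β+ cells and Plod1 is filled on opposite sides of 0.

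After siKlf4 the 2 cell types were farther apart than before it in Lox, Loxl1, Loxl2 and Plod1, and closer in Loxl3, Loxl4, Plod2 and Plod3. Lox was 1.51-fold higher in SMCs with Scr and 11.1-fold higher with siKlf4 as a ratio of mean TPM, and Loxl2 went from 1.62-fold to 6.32-fold. Loxl4 changed sides, from 2.33-fold higher in PDGFR-β+ cells to 1.87-fold higher in SMCs. These ratios rest on the same libraries as the tests above and were not tested separately.

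Patterns were compared over the 12 libraries after the mean of each cell type was subtracted from log2(TPM + 1). Lox moved with Loxl4 (Pearson r = 0.966), Loxl1 (0.946), Plod1 (0.826), Loxl2 (0.806) and Plod3 (0.777), and little with Loxl3 (0.021) or Plod2 (0.119). The siKlf4 effect of Plod3 passed in neither cell type in the main fits. Of 9907 genes compared, those most like Lox were Slc33a1 (r = 0.997), Bmpr2 (0.994) and Ndufa4l2 (0.993). Those most like Plod1 were Adam12, Mpp2 and Thbs1 (0.985 to 0.991), and those most like Plod2 were Ppp3r1, Tgoln1 and Rraga (0.941 to 0.950). Nearest to Loxl1 were Map1a, Lzts3 and Wisp2, to Loxl4 Vps4a, Mtap and Fam120a, to Loxl2 Lrrc40, Zfand3 and Pdia5, to Loxl3 Trim11, Rps21 and Fam214b, and to Plod3 Slc24a3, Fstl1 and Golgb1. The points share libraries and 2 treatments, so high values are common among genes that respond and describe this set of libraries only.

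Other genes of collagen modification in the endoplasmic reticulum were read by list, and the list counts here and below are set against all genes, of which 15.6% rose and 12.9% fell in SMCs while 25.3% rose and 15.3% fell in PDGFR-β+ cells. Counts under other settings, such as the numbered SMC libraries alone, come from other fits and are not set against these shares. Of 11 tested genes for prolyl hydroxylation, its complexes and glycosylation, 1 rose and 1 fell in SMCs (list median 0.15 on the log2 scale) and 2 rose and 4 fell in PDGFR-β+ cells (list median -0.19 against 0.097 for all genes). P3h4, a partner of lysyl hydroxylase 1 in the procollagen modification complex, had a log2 fold change of -1.11 (adjusted p = 0.000168) in PDGFR-β+ cells, going from 115, 117 and 105 TPM to 58.5, 49.3 and 46.7 TPM, and read 83.6 to 101 TPM under Scr and 97.4 to 110 TPM under siKlf4 in SMCs. It was thus lower in the same cells as Plod1, and its effect differed between the cell types (1.26, adjusted p = 6.96e-05). P4ha3, a prolyl 4-hydroxylase subunit, fell in both (-1.02 and -0.44), Ppib rose in PDGFR-β+ cells (0.39), and Colgalt1, which adds galactose to hydroxylysine, rose in SMCs (0.54, adjusted p = 0.00759). P3h2 rose in PDGFR-β+ cells (1.02, adjusted p = 0.0116) at levels under 5 TPM.

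Collagen folding and export gave 3 higher and 2 lower of 11 in SMCs (5 lower in the numbered libraries alone), and 2 higher and 1 lower in PDGFR-β+ cells. Fkbp10, the chaperone that promotes lysyl hydroxylase 2 activity on telopeptides, rose by 0.52 (log2, adjusted p = 0.00663) in SMCs and fell by 0.26 (adjusted p = 0.0276) in PDGFR-β+ cells, with a difference of 0.78 (adjusted p = 0.000477). The levels were 188, 228 and 221 TPM against 288, 317 and 309 TPM in SMCs. Fkbp7 (-0.66) and Tmem38b (-0.52) fell in SMCs, and the export coat genes Sec23a and Sec24d rose in both cell types, by 0.29 to 0.46. Of 7 procollagen processing genes tested in each cell type, 1 rose and 2 fell in SMCs. Tll1 rose (1.10, adjusted p = 0.00473). Bmp1 (-0.52, adjusted p = 0.00326), a protease that removes the LOX propeptide, and Adamts3 (-0.75, adjusted p = 0.0186) fell. In PDGFR-β+ cells 1 rose, Tll1 (0.36, adjusted p = 0.00833), and 1 fell, Pcolce2 (-1.74, adjusted p = 0.000124).

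The substrate genes moved in both directions. Of 10 fibrillar collagen genes, 1 rose and 3 fell in SMCs and 2 rose and 1 fell in PDGFR-β+ cells. Col1a1 fell in PDGFR-β+ cells (-0.63, adjusted p = 0.00816), from 2103, 1783 and 1925 TPM to 1534, 1105 and 1153 TPM, a smaller change than that of Lox. Col3a1 fell in SMCs (-1.05, adjusted p = 0.00432), with -0.13 (adjusted p = 0.691) in PDGFR-β+ cells, and Col11a1 rose in both (0.57 and 0.49). Of 10 genes for elastin and its assembly partners, 6 were lower and 2 higher in PDGFR-β+ cells, where 15.3% of all genes were lower. In SMCs 4 were lower, where 12.9% of all genes were. The numbered SMC libraries alone gave 7 lower, in another fit to which that share does not apply. Eln fell in both cell types (-1.43 in SMCs and -1.58 in PDGFR-β+ cells, adjusted p = 0.000997 and 0.000207), as did Mfap5 (-1.15 and -1.29), while Fbn1, fibrillin-1, fell in PDGFR-β+ cells (-1.30, adjusted p = 0.00044) and measured 240 to 276 TPM under Scr and 223 to 230.5 TPM under siKlf4 in SMCs. The SMC level of Eln was low, at 5.90 to 6.38 TPM with Scr.

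Among matrix proteins that bind or guide LOX family enzymes, Fmod and Tnxb fell in both cell types, by 1.68 to 2.45 on the log2 scale. Thbs1 parted, rising in SMCs from 3411, 3789 and 3856 TPM to 6568, 6768 and 6706 TPM (0.86, adjusted p = 0.000968) and falling in PDGFR-β+ cells from 5430, 4395 and 5112 TPM to 2457, 1902 and 1905 TPM (-1.26, adjusted p = 0.000311). The groups did not overlap in either cell type. In all 1 of 7 rose and 3 fell in SMCs and 3 of 6 fell in PDGFR-β+ cells.

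For cofactors, 4 of 8 copper supply genes fell in each cell type and 1 rose in SMCs (3 in the numbered libraries alone). Slc31a1, the high-affinity copper importer, rose by 0.28 in SMCs (adjusted p = 0.0338) and fell by 0.37 in PDGFR-β+ cells (adjusted p = 0.00349). The metallothioneins Mt1 and Mt2 and the metalloreductase Steap3 fell in both, by 0.43 to 0.96, and Atp7a, which loads copper onto secreted enzymes, gave 0.42 (adjusted p = 0.056) and -0.10 (adjusted p = 0.425). Of 6 genes for ascorbate and iron, which PLOD enzymes need, 1 rose (Tfrc, 0.95) and 3 fell in SMCs, and 2 fell in PDGFR-β+ cells. Of other crosslinking enzymes Tgm2, transglutaminase 2, fell in PDGFR-β+ cells (-2.01, adjusted p = 2.75e-05), from 176, 149 and 147 TPM to 43.4, 33.1 and 38.5 TPM. In SMCs it gave -0.23 (adjusted p = 0.0867), and the effects differed by 1.79 (adjusted p = 1.21e-05). The list counts were 1 higher and 1 lower of 5 in SMCs (3 lower in the numbered libraries alone) and 3 lower of 4 in PDGFR-β+ cells.

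**Figure D4:**
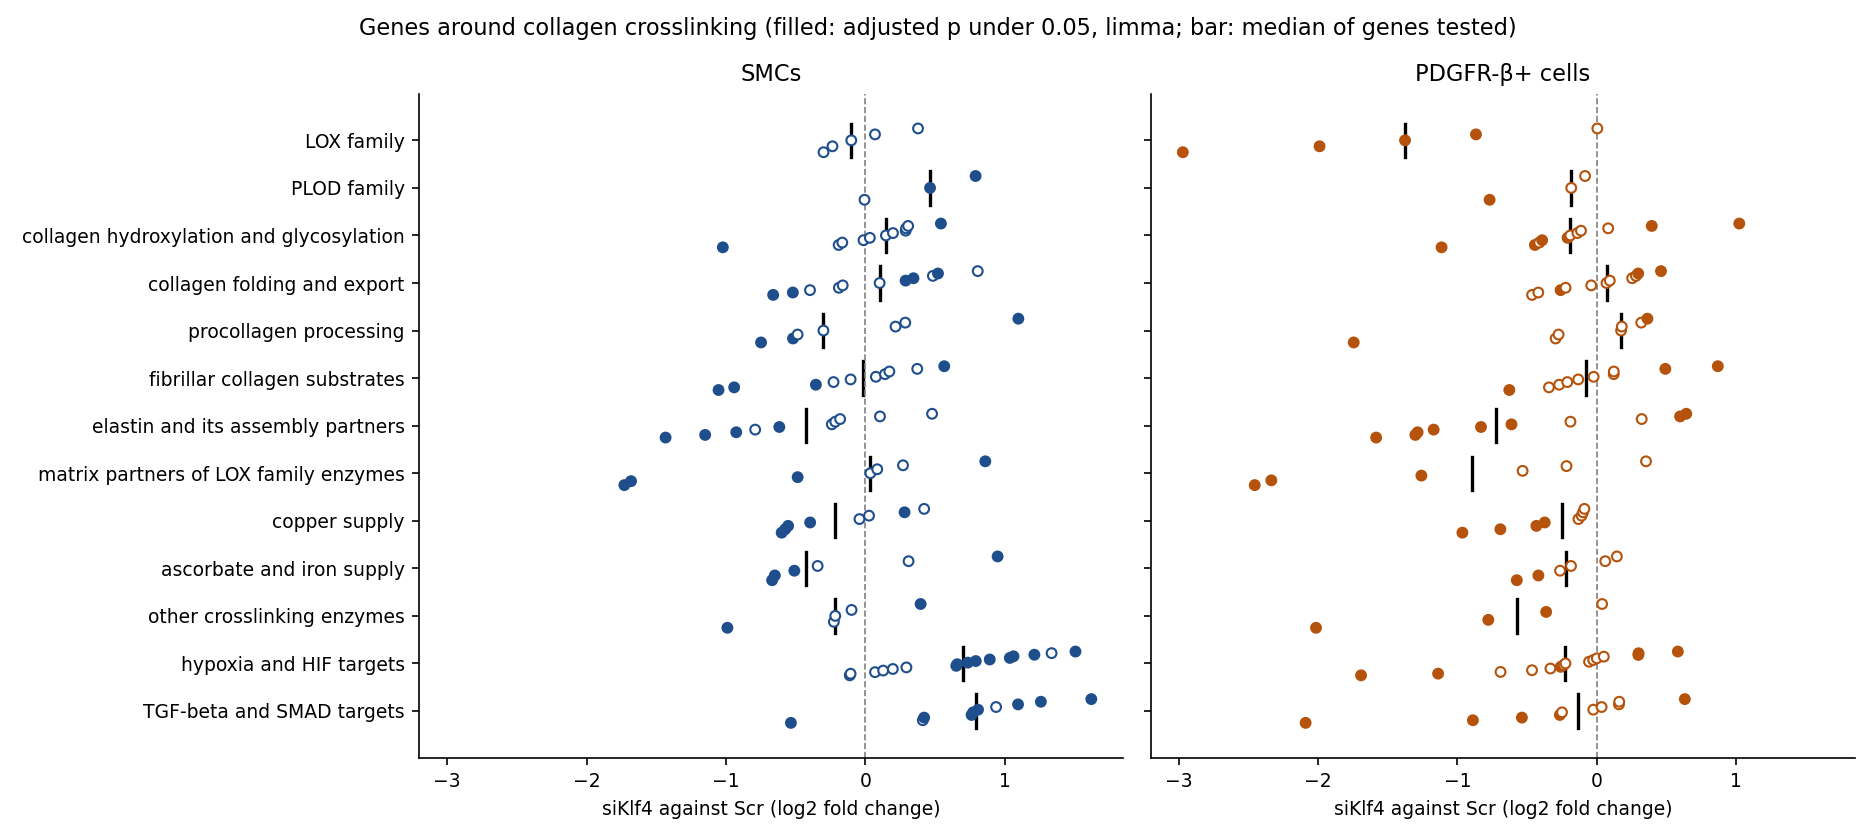
Log2 fold change of siKlf4 against Scr for genes of 13 lists around collagen crosslinking, in SMCs (left) and PDGFR-β+ cells (right). Points are genes tested, filled where adjusted p was under 0.05 (limma), and the bar is the list median; the LOX family median is -0.10 in SMCs and -1.38 in PDGFR-β+ cells, and the medians of hypoxia and TGF-β targets lie at 0.70 and 0.79 in SMCs.

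Lox and Plod2 are known targets of hypoxia-inducible factors and of TGF-β, so genes of both pathways were read beside them. Of 16 hypoxia targets, 9 rose and none fell in SMCs, where 15.6% of all genes were higher, with a list median of 0.70 against 0.017 for all genes. Among those called, Car9 (1.51), Ero1l (1.21), Slc2a1 (1.06) and Egln3 (1.04) had the largest fold changes, while Ak4 (1.34, adjusted p = 0.17) did not pass, and the count was also 9 in the numbered libraries alone. In PDGFR-β+ cells 3 of 15 rose and 3 fell, and 1 and 6 after median-ratio scaling, with 0 to 2 higher when any 1 library was left out. Bnip3, a mitophagy receptor, rose from 301, 291 and 271 TPM to 458, 533 and 507 TPM in SMCs and fell from 235, 177 and 233 TPM to 65.2, 69.8 and 61.1 TPM in PDGFR-β+ cells. The difference was 2.48 (log2, adjusted p = 1.82e-06). Of the list, 8 of 15 genes differed in this direction, where 14.5% of 13032 genes did. For all genes that count was 1886, and 2510 after median-ratio scaling.

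Of 10 TGF-β and SMAD targets, 7 rose and 1 fell in SMCs (15.6% and 12.9% of all genes), and 1 rose and 4 fell in PDGFR-β+ cells (25.3% and 15.3%). Ctgf, a matricellular protein, rose from 337, 636.5 and 689 TPM to 1197, 1274 and 1333 TPM in SMCs (1.26, adjusted p = 0.0116), and went from 1137, 1229 and 1057 TPM to 1019, 951 and 877.5 TPM in PDGFR-β+ cells (-0.27, adjusted p = 0.0421). Tgfbi also rose in SMCs (1.09, adjusted p = 0.00262). In PDGFR-β+ cells Skil rose (0.63, adjusted p = 0.00131) and Ltbp2 fell (-0.89, adjusted p = 0.00192). The SMC count was 9 in the numbered libraries alone and 3 with no filter on low genes, and the unnumbered Scr library was the lowest for Ctgf, as it was for Lox.

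Markers of other cells moved with the groups as follows. Summed smooth muscle markers reached 3434 to 4207 TPM with siKlf4 in SMCs, with 7 of 9 genes higher (Acta2, Tagln, Myh11, Cnn1, Actg2, Lmod1 and Smtn) and Des and Synpo2 not called, and went to 4745 to 5048 TPM in PDGFR-β+ cells, with Myh11, Lmod1, Smtn and Synpo2 higher, Acta2, Tagln and Des lower and Cnn1 and Actg2 not called. Summed mesenchyme markers went from 666 to 841 TPM to 538 to 681 TPM in SMCs, where Cspg4, Axin2, Tcf21 and Dpt were lower, and from 618 to 690 TPM to 486 to 611 TPM in PDGFR-β+ cells, where Pdgfrb, Cspg4 and Dpt were lower. Macrophage markers (8 rows) summed to 4.65 to 7.32 TPM over the SMC libraries. In PDGFR-β+ cells they summed to 29.0 to 30.1 TPM under Scr and 18.8 to 23.0 TPM under siKlf4. Ptprc, Adgre1, Itgam and Mrc1 were under 1 TPM throughout. Lyz2 was the largest part of the PDGFR-β+ sum, at 17.3 to 20.3 TPM under Scr and 9.49 to 13.6 TPM under siKlf4. In these cells siKlf4 lowered Lyz2 (-0.71, adjusted p = 0.00538) and Csf1r (-0.87, adjusted p = 0.0138), and Cd68 was not called (0.20, adjusted p = 0.29). Endothelial markers (6 genes) summed to at most 18.4 TPM with Pecam1, Cdh5, Cldn5 and Vwf under 1 TPM. Kdr measured 11.8 to 17.1 TPM and Tek 1.17 to 3.14 TPM in PDGFR-β+ cells. With siKlf4, Kdr was called higher in SMCs (1.22), at most 3.12 TPM, and Tek in PDGFR-β+ cells (0.60). Each of the 6 epithelial markers was under 1 TPM. The part of the smooth muscle, mesenchyme and macrophage marker shifts in the enzyme results was not tested.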

How the data were processed

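The authors sequenced poly(A) RNA from 12 libraries as strand-specific paired-end libraries, trimmed and aligned the reads with HISAT2 to mm10 and quantified genes with StringTie, per the labels and the study's methods; versions are not given in the sources used here. The deposited values are TPM, 1 table per cell type of 6 libraries each, and the study's own count test with DESeq2 was not repeated because counts were not used here. TPM sum to the same total in each library, so the depth reached per library is unknown (the study states only a target yield), no counting interval could be given, and a change in 1 abundant gene shifts the shares of others.

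From the tables, log2(TPM + 1) was fitted with limma 3.58.1 (R 4.3.3, empirical Bayes with a trend) on genes averaging 1 TPM or more, with Benjamini-Hochberg adjustment over all genes and calls at 0.05. SMCs and PDGFR-β+ cells were fitted apart, the difference of effects over 12 libraries and the baseline over the 6 Scr libraries, so the baseline and the siKlf4 comparisons share Scr libraries. Fold changes on this scale understate those of low genes. With 3 libraries against 3 an exact permutation test cannot go below 0.1, so it gives no call. The fits were run on simulated data with independent noise in each library and added effects of at least 1 on the log2 scale. That simulation held no deviations shared between libraries and no smaller effects, so it does not speak to those. Alternatives were a pseudocount of 0.1, no filter or a minimum of 5 TPM, median-ratio or quantile scaling, no trend, 1 fit over 12 libraries, a replicate block, the numbered SMC libraries alone or a term for the unnumbered ones, and each library left out.

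Named genes were the 8 members, Klf4, for each of 16 gene lists up to 4 called genes with the largest change per cell type, all genes of both mesenchymal marker lists, and the 3 nearest patterns per member. Not every gene that this rule allows is named, so a named gene need not have the largest change of its list. Atp7a was named for its role, after its values were seen. An item that the rule would name is not reported here. Members and lists were chosen with earlier results of these data known. Of the list symbols 4 were not in the tables, 3 of them newer or older names of genes that are. Positions come from GENCODE M21 (GRCm38), whose gene ID versions matched the files for all members but Lox. Over 13694 genes, same-numbered PDGFR-β+ libraries did not deviate together (r of deviations 0.073, -0.016 and 0.0043). The most abundant gene there, Gm42418, did follow the number. It took 3.48%, 4.96% and 6.33% of TPM in Scr replicates 1, 2 and 3, and 3.60%, 4.89% and 6.25% in those of siKlf4. The cause was not tested. In SMCs the pairs numbered 2 and 3 gave 0.185 and 0.199 and the unnumbered libraries, whose number is not given, 0.361. These lay above the limit of 0.1 set for pairing, while unlike SMC pairs gave -0.217 to 0.050. SMC libraries thus deviated in pairs, but only 2 numbered pairs exist there. The main fit has no pairing, so its SMC calls ignore these shared deviations. The fit with a replicate block, which leaves out the unnumbered SMC libraries, is given as an alternative. A block that takes the unnumbered libraries as a further pair was not run.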

Additional observations from a re-analysis of the deposited data

Results flagged for a closer look

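The siKlf4 effect differed between the cell types for 6 enzymes by a test of the difference itself (limma over 12 libraries, SMC effect minus PDGFR-β+ effect on the log2 scale, adjusted over all genes), where 33% of 13032 genes passed, 14.5% in this direction. The differences were 2.87 for Lox, 0.63 for Loxl1, 1.75 for Loxl2, 2.06 for Loxl4, 1.23 for Plod1 and 0.87 for Plod2. The Loxl2 difference did not pass with the numbered SMC libraries alone (adjusted p = 0.0754) or with a replicate block (0.0549), which leaves 5 of these 6, while Loxl3 passed in the other direction with the numbered libraries alone (-0.44, adjusted p = 0.0384). For Lox, Loxl1 and Loxl4 the PDGFR-β+ effect was the larger in size, for Plod2 the SMC effect was, and Plod1 passed in both with opposite signs. Cell type, culture, table and the depth of the Klf4 knockdown (21.9% of Klf4 left in SMCs and 9.16% in PDGFR-β+ cells) differ together here and cannot be told apart.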

How the results depend on the processing

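Calls for Lox, Loxl1, Loxl4 and Plod1 in PDGFR-β+ cells, for Plod1 and Plod2 in SMCs, and for Lox, Loxl1, Loxl4, Plod1 and Plod2 in the difference of effects kept their side of the threshold and their sign under every alternative run and every library left out. The SMC results depended most on single libraries: leaving out 1 library gave 1157 to 2037 higher and 1044 to 1578 lower genes, against 2136 and 1774, and 0 to 2 lower members. Lower members numbered 3 instead of 0 with a replicate block, which uses only the 2 numbered pairs, and 3 with the numbered SMC libraries alone. In the difference of effects, lower members numbered 1 instead of 0 with the numbered SMC libraries alone, and 0 to 1 with 1 library left out. In SMCs the signs of small effects turned: Lox to 0.096 with quantile normalization, Loxl4 to -0.0059 with the block and with the numbered libraries and to -0.032 without the unnumbered siKlf4 library, (leaving out each library gave -0.032 to 0.16), and Plod3 to 0.024 without Scr replicate 2, 0.016 without siKlf4 replicate 2 and 0.024 without siKlf4 replicate 3 (range -0.058 to 0.024). In PDGFR-β+ cells Loxl3 turned to -0.11 with median-ratio scaling, -0.057 with quantile normalization, and -0.056, -0.029 and -0.017 without Scr replicate 1, Scr replicate 3 and siKlf4 replicate 1 (range -0.056 to 0.095), and Plod2 turned to 0.012 without Scr replicate 3 (range -0.23 to 0.012). The cause was not tested.

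No source ties a number to a culture, animal or experiment. With the replicate block, Lox, Loxl1 and Loxl3 in SMCs were called lower (-0.26, -0.34 and -0.44, adjusted p = 0.0395, 0.0388 and 0.0403), the Loxl2 difference of effects was not called (1.48, adjusted p = 0.0549), and no other member's call changed; SMC calls over all genes went to 1500 higher and 1353 lower, and PDGFR-β+ calls to 3486 and 2155. Without low-value filtering the baseline call of Lox was lost (adjusted p = 0.114). The Loxl2 baseline was called without PDGFR-β+ Scr replicate 1 (-1.21, adjusted p = 0.00761). For the baseline, scaling over the 6 libraries and the numbered SMC libraries alone were added after the data were seen. Without counts, no limit from depth could be set.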
